A study of Mus musculus with 38 samples.

Results

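The genes described here are 36 genes of the fat cell and of lipid storage, out of the 55487 genes in the tables, followed in omental tumors of 2 mouse models of high-grade serous ovarian cancer (HGSOC) and in the cultured cells that gave rise to them. Each gene was found in both tables by the Ensembl identifier that carries its symbol. The list was made by function, with earlier results of these data already known. A count of these genes set beside the share of all genes is therefore a description. It holds 4 adipokines, 4 genes of the lipid droplet coat, 7 genes of lipid uptake and transport, 4 of lipolysis and its hormonal control, 2 transcription factors, 5 genes of glycerol and triglyceride synthesis, 8 of fatty acid synthesis and 2 imprinted genes that adipose tissue expresses.

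The 60577 cells were injected into the peritoneal cavity of FVB mice and the HGS2 cells into C57BL/6J mice, all females of 8 to 9 weeks. The mice received 3 weekly doses of carboplatin at 20 mg/kg with paclitaxel at 10 mg/kg (chemo) from day 21 in 60577 and day 49 in HGS2, and controls received the vehicle. Tumors were taken 1 day (TP1), 7 days (TP2) or 21 days (TP3) after the last dose. RNA of a whole piece of each tumor was sequenced, with the fat, stroma and immune cells it held. The 60577 groups were 3 control and 3 chemo tumors at TP1, 3 control and 4 chemo tumors at TP2, and 4 chemo tumors at TP3. The HGS2 groups were 3 and 3 at TP1, 4 and 3 at TP2, and 4 chemo tumors at TP3, of which replicate 1 is absent from the study's own sample table and was left out of the fits reported here, entering only an alternative with all 17 HGS2 tumors. The TP3 tumors had no controls of their own and were compared with the TP2 controls, so chemo and the 2 further weeks of growth cannot be told apart there. The 60577 and HGS2 lines in culture gave 2 libraries each. All tumor and line libraries are mouse RNA, so a transcript of the host and one of the injected cells look the same.

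White adipocytes store fatty acids as triglyceride in a single large lipid droplet, and the omentum is a fat depot in which ovarian cancer cells often settle. Lipoprotein lipase frees fatty acids from lipoproteins in the capillary, CD36 and fatty acid binding proteins carry them into and through the cell, and acyl-CoA synthetases and acyltransferases join them to a glycerol backbone. Perilipins and CIDE proteins coat the droplet, lipases release the fatty acids when adrenergic signals arrive, and the nuclear receptor PPARgamma with C/EBPalpha switches most of these genes on. Fatty acid synthesis differs from the rest of the list, because many tumor cells make fatty acids too.

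The sequences just before the transcription start of 5 of these genes are shown, taken from RefSeq on GRCm38.p6, from the C57BL/6J reference strain, since promoters are where PPARgamma, C/EBP and lipogenic factors are known to act and the genes shown include 4 that were close to absent from the cultured cells and 1, Fasn, that was not. Of the 36 genes, 25 had an entry in the promoter table. Capitals mark letters that match CACGTG (the E box bound by MYC and SREBP proteins), AGGTCA (the motif of nuclear receptors), TTGCNNAA (C/EBP), CCAAT or TATAAA on either strand, and the matches in Fasn at -62 and -59 overlap.
Adipoq, chr16:23146286-23146535, plus strand: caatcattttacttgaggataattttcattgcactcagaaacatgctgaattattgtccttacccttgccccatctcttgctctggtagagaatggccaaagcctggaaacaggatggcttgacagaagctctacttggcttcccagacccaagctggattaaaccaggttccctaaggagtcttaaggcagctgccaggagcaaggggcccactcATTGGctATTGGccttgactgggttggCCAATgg
Plin1, chr7:79732777-79733026, minus strand: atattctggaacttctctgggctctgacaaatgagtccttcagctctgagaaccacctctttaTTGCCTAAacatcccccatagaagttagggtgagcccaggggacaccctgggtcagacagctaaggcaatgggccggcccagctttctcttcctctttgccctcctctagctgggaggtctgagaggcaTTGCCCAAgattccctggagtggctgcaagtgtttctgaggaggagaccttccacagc
Lep, chr6:29059971-29060220, plus strand: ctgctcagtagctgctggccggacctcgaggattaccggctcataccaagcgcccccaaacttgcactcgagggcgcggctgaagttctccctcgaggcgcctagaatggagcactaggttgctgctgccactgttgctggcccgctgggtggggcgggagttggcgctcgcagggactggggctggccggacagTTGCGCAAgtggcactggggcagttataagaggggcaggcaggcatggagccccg
Thrsp, chr7:97417551-97417800, minus strand: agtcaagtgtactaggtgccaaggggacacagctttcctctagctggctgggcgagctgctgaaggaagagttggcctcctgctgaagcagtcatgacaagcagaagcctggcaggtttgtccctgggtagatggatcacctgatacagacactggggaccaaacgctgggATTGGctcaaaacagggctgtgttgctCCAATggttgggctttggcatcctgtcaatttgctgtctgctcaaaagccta
Fasn, chr11:120824548-120824797, minus strand: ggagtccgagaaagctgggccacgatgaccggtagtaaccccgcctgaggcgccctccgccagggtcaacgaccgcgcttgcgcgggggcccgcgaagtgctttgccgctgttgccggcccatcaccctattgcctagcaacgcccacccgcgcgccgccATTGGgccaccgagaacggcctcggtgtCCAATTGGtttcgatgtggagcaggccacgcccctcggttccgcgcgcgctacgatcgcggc
Counted from the start, Adipoq held CCAAT matches at -34, -27 and -7, Thrsp at -79 and -52, and Fasn at -90, -62 and -59. Plin1 held C/EBP matches at -187 and -58 and Lep held one at -55. A window that also takes in the first transcribed bases held a C/EBP match in 14.7% of the 34 promoters of these 25 genes and in 10.8% of all 32851 promoters, and CCAAT in 32.4% and 37.4%. The nuclear receptor motif stood in 23.5% and 16.3%, the E box in 2.94% (1 promoter, of Lipe) and 7.15%, and TATAAA in 8.82% and 13.6%. A match is a run of letters in a short window and does not show binding.

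Levels are given as CPM, counts scaled to a common library size, and differences as log2 fold changes with their standard error from edgeR's quasi-likelihood test. A gene was called different where its adjusted p was below 0.05 and its log2 fold change exceeded 1 in size, and "rose" or "fell" is used of such genes. The tumor libraries held 17839641 to 49299421 counts and the cell line libraries 31633099 to 42461989. Of the 36 genes, 35 reached 1 CPM in enough tumors to be tested. The exception was Cidea, a droplet protein of brown and beige fat, which did not exceed 0.151 CPM in any library. Lep, Aqp7, Slc2a4, Adrb3 and Thrsp passed this filter only through the chemo tumors of 60577, so their presence among the tested genes is not independent of the 60577 differences below.

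The name of the list was set beside 6 adipocyte genes, Adipoq, Plin1, Cidec, Lep, Fabp4 and Lipe. All 6 belong to the list, so this is a description and not a separate check. In the cultured lines Adipoq did not exceed 0.192 CPM, Lep 0.0449 CPM and Fabp4 0.438 CPM, and no count fell on Cidec. Their sum was 24.1 and 24.4 CPM in 60577 cells and 19.4 and 28.6 CPM in HGS2 cells, nearly all of it from Lipe, hormone-sensitive lipase, at 23.6 and 24.03 CPM in 60577 cells. The 6 control tumors of 60577 summed to 38.7 to 54.1 CPM, and most of this was Lipe as well, at 31.2 to 44.0 CPM. The chemo tumors summed to 33.4 to 587 CPM at TP1, 127 to 716 CPM at TP2 and 1365 to 1964 CPM at TP3. In HGS2 the controls ranged from 21.9 to 97.3 CPM and the chemo tumors from 20.8 to 589 CPM. In bulk RNA, more adipocytes and more RNA of these genes per adipocyte cannot be told apart.

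Summed over all 36 genes, the level was highest at TP3 in 60577. The sums are given here as a percentage of the scaled library size, which is not the raw share of the counts. The sum was 0.144% to 0.167% in the 6 controls, 0.157%, 0.189% and 0.394% in the TP1 chemo tumors, and 0.165% to 0.648% at TP2. At TP3 it was 1.31% to 1.95%, so no TP3 tumor overlapped any other 60577 tumor. In the controls and at TP3 most of the sum came from the genes of fatty acid synthesis, at 895 to 985 CPM and 6771 to 12172 CPM. The adipokines summed to 0.311 to 5.06 CPM and 1056 to 1474 CPM, so the sum is not a level of adipocyte genes alone. The HGS2 tumors in the fits held 0.119% to 0.281%, and HGS2 TP3 chemo replicate 1 held 0.802%. The lines in culture held 0.247% to 0.318%, above every control tumor, and most of that came from Fasn, Scd1, Acly and Lpl. As tumors and lines were scaled separately, the order of lines and control tumors was not tested.

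**Figure D1:**
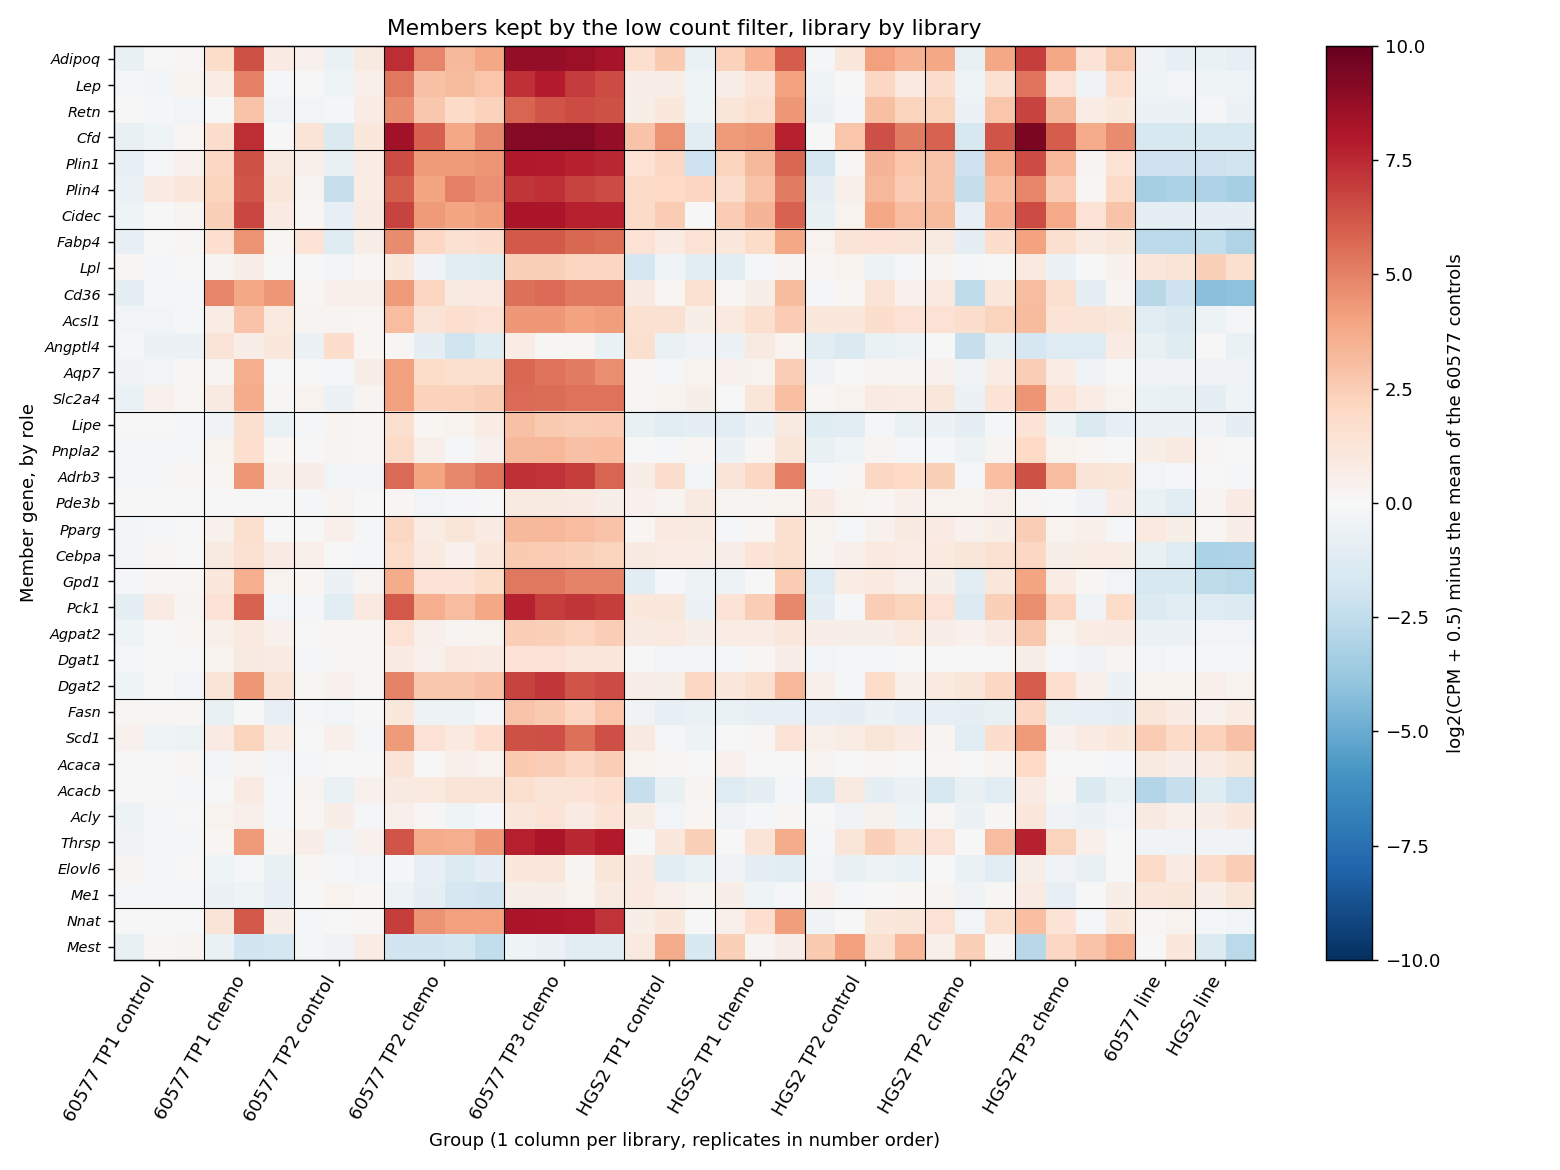
Level of the 35 tested genes (rows, by role) in the 34 tumors and 4 cell line libraries (columns, by group). Color is log2(CPM + 0.5) minus the mean of the 60577 controls, red above and blue below it; the 4 TP3 chemo tumors of 60577 form the one block in which nearly all rows are high, and single tumors stand out at TP1 (replicate 2) and TP2 (replicate 1) of 60577 and at TP3 of HGS2 (replicate 1).

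The 60577 model was taken first. At TP1, 19 of the 35 genes were higher in chemo tumors and 1, Mest, was lower, against 9.65% and 5.96% of all 16241 genes tested. The median log2 fold change was 2.11 for these genes and close to 0 (-0.0021) for all genes. At TP2, 22 were higher and 3 lower (Angptl4, Me1 and Mest), where 14.8% and 9.61% of all genes were, with a median of 2.45. At TP3, 30 were higher than in TP2 controls and none lower, where 14.2% and 10.2% of all genes were, with a median of 5.12. The TP2 and TP3 comparisons share their 3 controls, so they do not count as separate evidence. At TP1 limma-voom called 5 of the 35 genes, ending 16 of these calls, among them those of Adipoq, Cfd, Cidec, Lep and Nnat, and a fit with a replicate block called 13. Of all 16241 genes, limma-voom called 1394 higher and 972 lower. The TP1 result rested on 1 tumor, chemo replicate 2: without it 2 genes kept their call, Cd36 and Acsl1. Without TP1 control replicate 1, 9 were called, and without control replicate 3, 13. At TP2 the calls of Acacb, Angptl4, Aqp7, Cebpa, Fabp4 and Pparg, and at TP3 that of Elovl6, were lost when 1 tumor or another was left out.

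**Figure D2:**
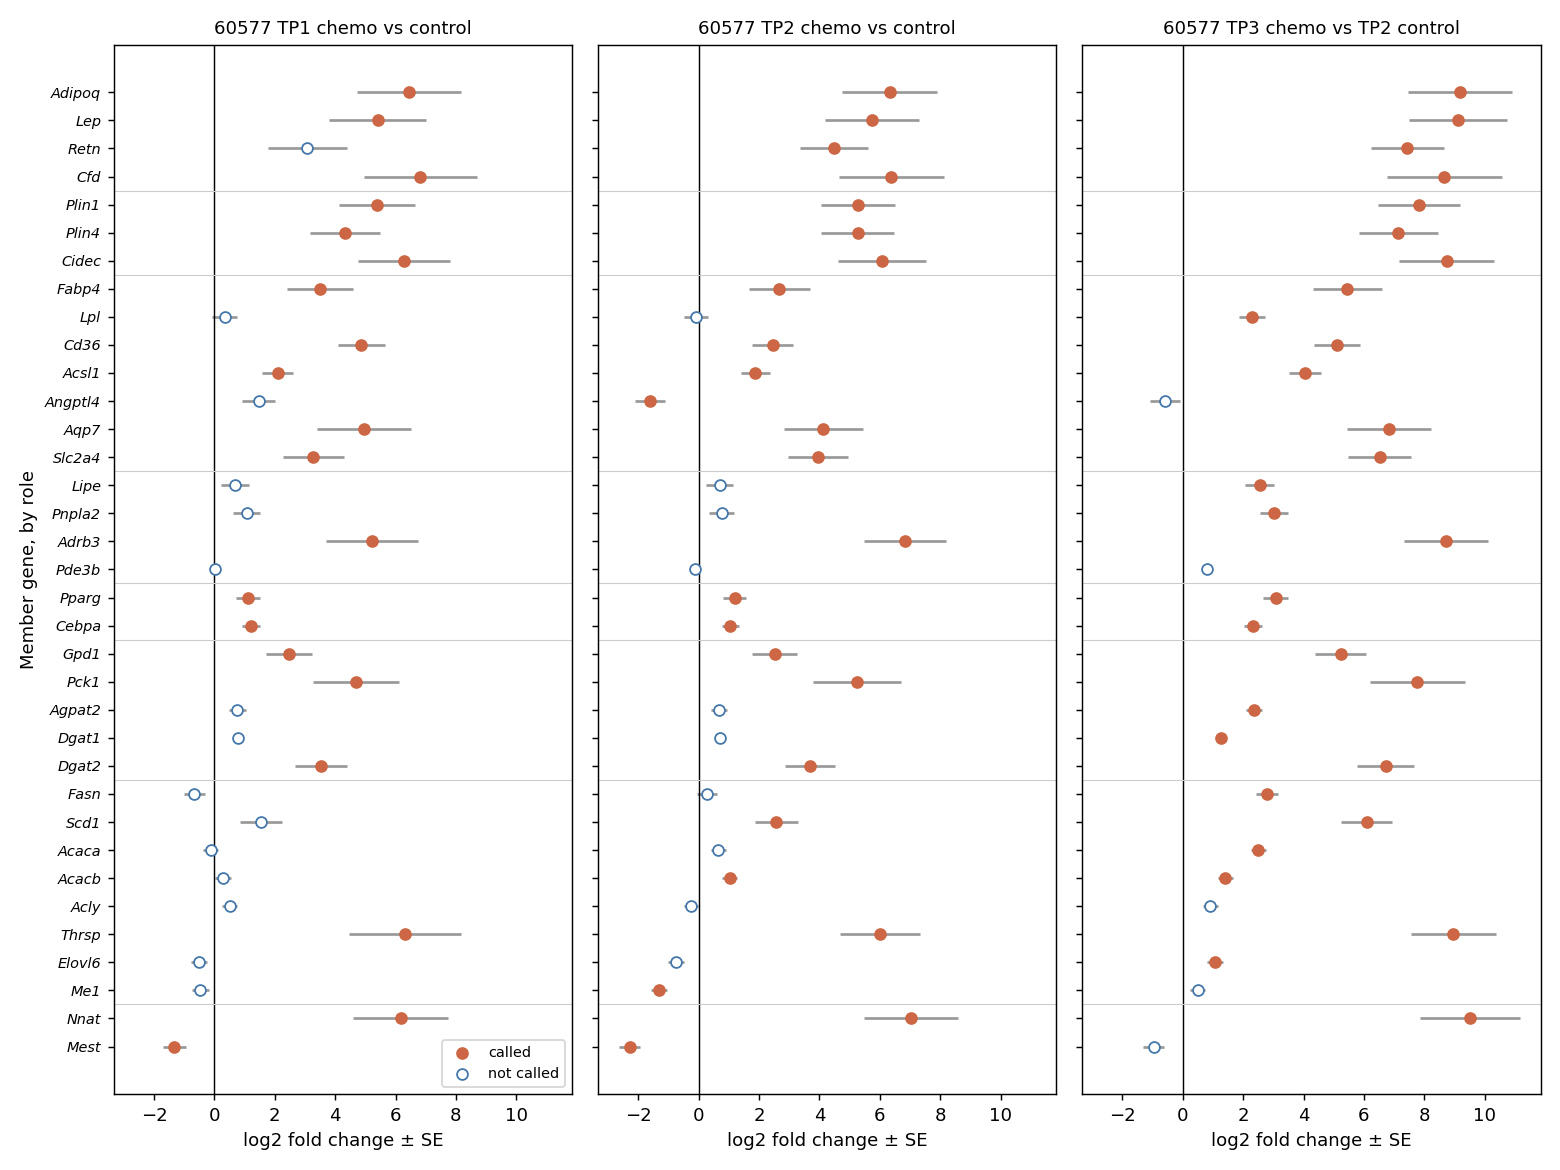
Log2 fold change with its standard error for the 35 tested genes in 60577 at TP1, TP2 and TP3, the last against TP2 controls. Filled points passed the test and open points did not; adipokine and droplet genes, Thrsp, Adrb3 and Nnat are among those furthest to the right, and Mest, Angptl4 and Me1 are the genes with called decreases.

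Of the 4 adipokines, the hormones and secreted proteins of the fat cell, 3 rose at TP1 and all 4 at TP2 and TP3. Cfd encodes adipsin, the complement factor D that fat secretes, and had the highest level per length of the adipokines in both models. It stood at 0.416, 0.630 and 1.27 CPM in TP1 controls and 4.62, 260.1 and 1.05 CPM in TP1 chemo tumors. At TP2 it was 3.27, 0.0621 and 2.75 CPM in controls and 510.3, 94.0, 21.9 and 43.2 CPM in chemo tumors, and at TP3 822, 871, 867 and 665 CPM. One TP1 chemo tumor lay within the control range, whereas every TP2 and TP3 chemo tumor lay above every control. The change was a log2 fold change of 6.82 ± 1.87 (SE), adjusted p = 0.0115 at TP1, a log2 fold change of 6.39 ± 1.75 (SE), adjusted p = 0.00606 at TP2 and a log2 fold change of 8.67 ± 1.92 (SE), adjusted p = 0.00153 at TP3. The controls were near 0, so the size of these fold changes is poorly determined.

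Adipoq, which encodes adiponectin, followed the same order. Its controls held 0.0347, 0.354 and 0.457 CPM at TP1 and 0.720, 0.0621 and 1.11 CPM at TP2. The chemo tumors held 2.69, 71.2 and 1.05 CPM at TP1, 148, 25.3, 7.75 and 12.4 CPM at TP2 and 393, 396, 337 and 271 CPM at TP3. The TP2 difference was a log2 fold change of 6.32 ± 1.57 (SE), adjusted p = 0.00331, and all 4 TP2 chemo tumors lay between the controls and the TP3 tumors. Lep, the satiety hormone leptin, had 0.131, 0 and 0.452 CPM in TP2 controls, 24.9, 4.40, 5.30 and 4.04 CPM in TP2 chemo tumors and 104, 150.3, 81.0 and 58.7 CPM at TP3. It rose at TP1 (log2 fold change of 5.40 ± 1.61 (SE), adjusted p = 0.0183) and TP2 (log2 fold change of 5.75 ± 1.56 (SE), adjusted p = 0.00566), and at TP1 only replicate 2, at 20.6 CPM, was above 1 CPM. Retn, which encodes resistin, was the exception at TP1, with 0.25, 4.84 and 0.0775 CPM in chemo against 0.277, 0.197 and 0.130 CPM in control tumors and a log2 fold change of 3.08 ± 1.31 (SE), adjusted p = 0.0837, which missed the threshold. DESeq2 called it, as did edgeR without chemo replicate 1 or 3. It rose at TP2 (log2 fold change of 4.48 ± 1.13 (SE), adjusted p = 0.00365) and reached 42.8, 57.1, 68.2 and 62.4 CPM at TP3 (log2 fold change of 7.44 ± 1.20 (SE), adjusted p = 1.25e-04).

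**Figure D3:**
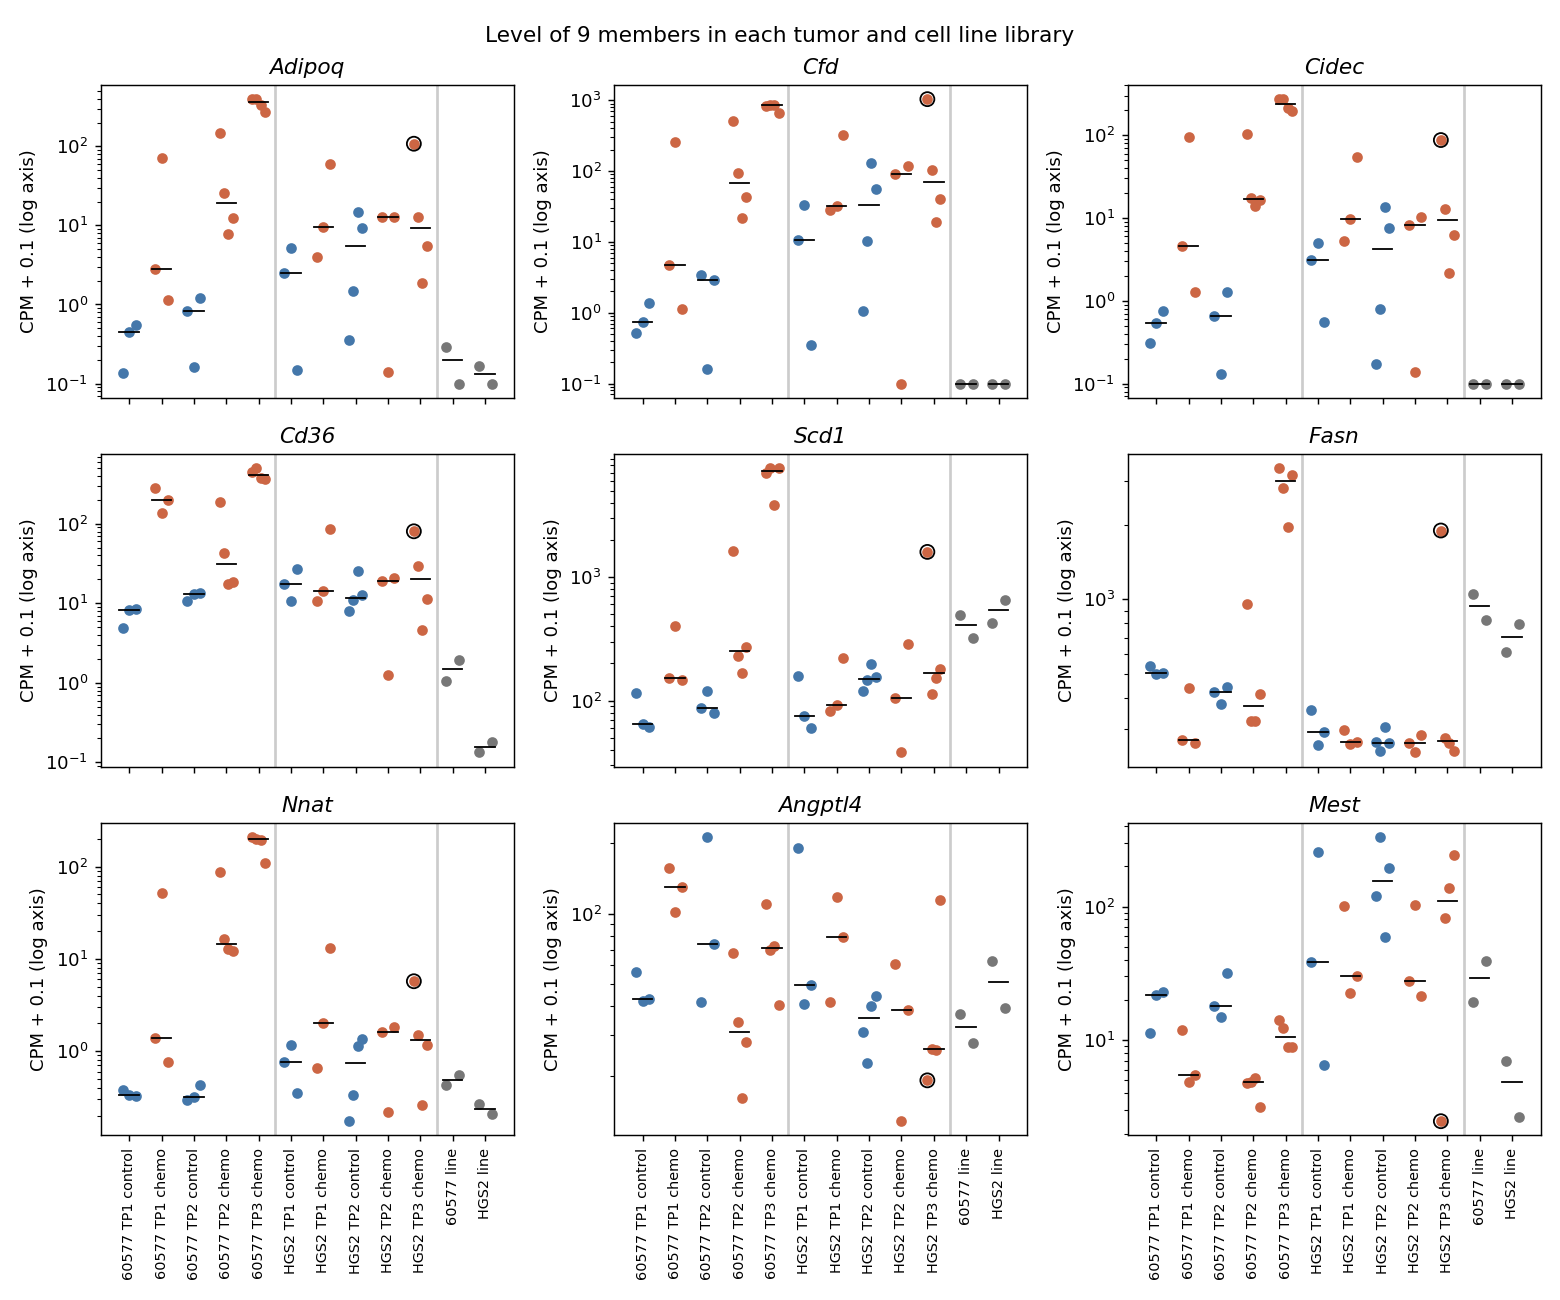
CPM + 0.1 on a log axis for 9 of the genes in every library; blue points are control, orange chemo and gray cell line libraries, black lines are group medians, and the circled tumor is HGS2 TP3 chemo replicate 1. Adipoq, Cfd, Cidec and Nnat are near the bottom of the axis in cultured cells and high in all 4 TP3 tumors of 60577, while Fasn and Scd1 are high in culture as well.

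All 3 tested genes of the droplet coat rose at TP1, TP2 and TP3. Cidec, which joins small droplets into the single large one of white fat, had 0.208, 0.433 and 0.652 CPM in TP1 controls, 4.47, 96.1 and 1.16 CPM in TP1 chemo tumors, 0.556, 0.0311 and 1.19 CPM in TP2 controls, 103, 17.2, 13.9 and 16.3 CPM in TP2 chemo tumors and 272, 270.0, 212 and 196 CPM at TP3. No chemo tumor overlapped the controls of its time point. Its differences were a log2 fold change of 6.28 ± 1.52 (SE), adjusted p = 0.0055 at TP1, a log2 fold change of 6.06 ± 1.45 (SE), adjusted p = 0.00264 at TP2 and a log2 fold change of 8.74 ± 1.58 (SE), adjusted p = 3.06e-04 at TP3. Plin1, the perilipin that guards the droplet from lipases, rose at TP1, TP2 and TP3 by log2 fold changes of 5.38, 5.29 and 7.83, and Plin4, a perilipin of small and growing droplets, by 4.33, 5.27 and 7.14. Plin1 reached 375 to 543 CPM and Plin4 469 to 813 CPM at TP3, against at most 2.96 and 10.1 CPM in any 60577 control.

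Of the 7 uptake and transport genes, 5 rose at TP1, 5 rose and 1 fell at TP2, and 6 rose at TP3. Cd36, the fatty acid receptor of adipocytes, macrophages and capillaries, was 1 of the 2 genes whose TP1 call did not depend on chemo replicate 2. It had 4.82, 8.11 and 8.41 CPM in TP1 controls and 282, 139 and 197 CPM in TP1 chemo tumors, a log2 fold change of 4.86 ± 0.77 (SE), adjusted p = 2.97e-04. In TP2 controls it had 10.5, 13.1 and 13.2 CPM, in TP2 chemo tumors 189.9, 43.1, 17.6 and 18.7 CPM and at TP3 447, 504, 373 and 370.1 CPM. It rose at TP2 as well (log2 fold change of 2.45 ± 0.67 (SE), adjusted p = 0.0061), and the TP3 difference was a log2 fold change of 5.12 ± 0.76 (SE), adjusted p = 6.40e-05. Aqp7, the glycerol channel of adipocytes, and Slc2a4, the insulin-regulated glucose transporter GLUT4, both below 1 CPM in every 60577 control, rose at all times, to 15.8 to 33.7 and 38.9 to 47.4 CPM at TP3. Fabp4, the adipocyte fatty acid carrier that macrophages and capillaries also make, rose as well, by 3.49, 2.68 and 5.45 on the log2 scale. Acsl1, the acyl-CoA synthetase that activates fatty acids for triglyceride, had 13.8, 13.9 and 15.5 CPM in TP1 controls against 28.8, 122 and 34.6 CPM after chemo, and rose at TP1 (log2 fold change of 2.11 ± 0.51 (SE), adjusted p = 0.00573), TP2 (log2 fold change of 1.88 ± 0.49 (SE), adjusted p = 0.0043) and TP3 (log2 fold change of 4.04 ± 0.54 (SE), adjusted p = 2.40e-05).

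Lpl, the lipoprotein lipase, was already at 166 to 236 CPM in controls. Its chemo tumors held 250.4, 325 and 201 CPM at TP1 and 416, 155, 97.9 and 87.3 CPM at TP2, with log2 fold changes of 0.34 and -0.09 that did not pass the test, and 1074, 1032, 897 and 887 CPM at TP3, where it rose (log2 fold change of 2.29 ± 0.43 (SE), adjusted p = 4.31e-04). Angptl4, a secreted inhibitor of that lipase which fasting and hypoxia induce, had 56.3, 42.0 and 43.0 CPM in TP1 controls and 156, 101 and 129.6 CPM in TP1 chemo tumors, with a log2 fold change of 1.47 ± 0.55 (SE), adjusted p = 0.052, which missed the threshold of the adjusted p. DESeq2 and limma-voom did call it higher. At TP2 its controls had 41.5, 213 and 73.9 CPM and its chemo tumors 67.5, 34.1, 15.99 and 27.9 CPM. This was a decrease (log2 fold change of -1.60 ± 0.50 (SE), adjusted p = 0.0136), although chemo replicate 1 lay within the control range, and the call was lost without TP2 control replicate 2, the highest control. At TP3 it had 109, 69.8, 72.8 and 40.4 CPM and did not pass the test (log2 fold change of -0.58 ± 0.50 (SE), adjusted p = 0.351).

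Of the lipolysis genes, Adrb3 alone rose at TP1 and TP2, and 3 of 4 rose at TP3. It encodes the beta-3 adrenergic receptor, through which sympathetic nerves release stored fat. It had 0.491, 0 and 0 CPM in TP2 controls, 30.6, 8.84, 16.5 and 24.4 CPM in TP2 chemo tumors and 94.5, 92.1, 73.2 and 34.2 CPM at TP3, and its TP2 difference was a log2 fold change of 6.83 ± 1.34 (SE), adjusted p = 6.51e-04. The TP1 tumors held 0.0347, 0.0787 and 0.196 CPM without and 0.187, 11.7 and 0.387 CPM with chemo (log2 fold change of 5.21 ± 1.51 (SE), adjusted p = 0.0158). Pnpla2, the lipase ATGL that takes the first fatty acid off a triglyceride, had 30.8, 31.9 and 29.6 CPM in TP1 controls, 44.2, 110.4 and 38.7 CPM in TP1 chemo tumors, 34.9, 40.7 and 38.8 CPM in TP2 controls and 133, 49.2, 30.6 and 47.2 CPM in TP2 chemo tumors. It did not pass the test at TP1 (adjusted p = 0.0764) or TP2 (adjusted p = 0.127). At TP3 it had 326, 351, 263 and 285 CPM and rose (log2 fold change of 3.01 ± 0.46 (SE), adjusted p = 7.42e-05). Lipe rose at TP3 too, by 2.55 on the log2 scale, from 31.2 to 44.0 CPM in controls to 195 to 274 CPM. Pde3b, the phosphodiesterase through which insulin restrains lipolysis, reached 99.6 to 129 CPM from 58.8 to 81.9 CPM, a log2 fold change of 0.79 ± 0.13 (SE), adjusted p = 1.64e-04, which is under the fold threshold.

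Both transcription factors rose at each time by less than the adipokines did. Cebpa, which encodes C/EBPalpha, had 33.1, 43.5 and 39.7 CPM in TP1 controls and 77.0, 120.0 and 71.3 CPM in TP1 chemo tumors, 57.2, 41.4 and 35.9 and 148, 81.3, 57.1 and 87.9 CPM at TP2, and 254, 236, 211 and 197 CPM at TP3. The TP1 groups did not overlap, whereas 1 TP2 chemo tumor fell just below the highest control. Its differences were a log2 fold change of 1.21 ± 0.29 (SE), adjusted p = 0.00525 at TP1, a log2 fold change of 1.05 ± 0.28 (SE), adjusted p = 0.00454 at TP2 and a log2 fold change of 2.33 ± 0.29 (SE), adjusted p = 1.31e-05 at TP3. Pparg rose by 1.11, 1.20 and 3.08, to 32.2 to 45.1 CPM at TP3 from 3.26 to 6.06 CPM in controls. At TP2 both calls were lost without control replicate 3 or chemo replicate 1.

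Of the 5 genes of glycerol and triglyceride synthesis, 3 rose at TP1 and TP2 and all 5 at TP3. The most abundant per length was Dgat2, whose enzyme adds the last fatty acid. It had 1.77, 2.72 and 2.09 CPM in TP1 controls, 6.81, 62.0 and 6.97 CPM in TP1 chemo tumors, 2.81, 3.51 and 2.75 CPM in TP2 controls, 95.5, 18.9, 19.4 and 22.5 CPM in TP2 chemo tumors and 335, 421, 237 and 275 CPM at TP3. Every chemo tumor was above every control. It rose at TP1 (log2 fold change of 3.53 ± 0.85 (SE), adjusted p = 0.00543), TP2 (log2 fold change of 3.68 ± 0.82 (SE), adjusted p = 0.00157) and TP3 (log2 fold change of 6.71 ± 0.94 (SE), adjusted p = 3.49e-05). Gpd1, which makes glycerol 3-phosphate from glucose, and Pck1, the entry to glyceroneogenesis, also rose at each time, by 5.23 and 7.77 at TP3. Dgat1, which the gut and many other cells use for the same step, had an adjusted p of 0.00244 at TP1 with a log2 fold change of 0.79, under the fold threshold, and rose at TP3 (log2 fold change of 1.28 ± 0.16 (SE), adjusted p = 1.54e-05). Agpat2, the acyltransferase whose loss causes congenital lipodystrophy, rose at TP3 (log2 fold change of 2.36 ± 0.28 (SE), adjusted p = 8.38e-06), with 40.8 to 51.5 CPM against 6.58 to 10.6 CPM in controls.

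Of the 8 genes of fatty acid synthesis, 1 rose at TP1, 3 rose and 1 fell at TP2, and 6 rose at TP3. Thrsp, the lipogenic protein Spot 14, behaved like an adipocyte gene, with 0, 0.0787 and 0.0652 CPM in TP1 controls, 0.25, 11.8 and 0.271 CPM in TP1 chemo tumors, 0.556, 0 and 0.370 CPM in TP2 controls, 50.1, 7.97, 7.41 and 13.0 CPM in TP2 chemo tumors and 141, 183, 121 and 158 CPM at TP3. It rose by 6.32 at TP1 (adjusted p = 0.0171), 6.01 at TP2 (adjusted p = 0.00148) and 8.96 at TP3 (adjusted p = 1.01e-04) on the log2 scale. At TP1, replicate 2 was the one chemo tumor above 1 CPM.

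Scd1, the desaturase that makes oleic acid, was the most abundant of the 36 genes per length in 60577 tumors. It had 115, 64.8 and 60.5 CPM in TP1 controls and 153, 400.2 and 146 CPM in TP1 chemo tumors, and did not pass the test (log2 fold change of 1.55 ± 0.71 (SE), adjusted p = 0.106). At TP2 it had 87.7, 120.3 and 79.8 CPM in controls and 1623, 230.5, 166 and 273 CPM in chemo tumors (log2 fold change of 2.58 ± 0.71 (SE), adjusted p = 0.0063), with replicate 1 far above the others. At TP3 it had 6934, 7625, 3798 and 7596 CPM (log2 fold change of 6.09 ± 0.85 (SE), adjusted p = 3.51e-05). Fasn, the fatty acid synthase, had 541, 500.5 and 505 CPM in TP1 controls and 269.8, 439.7 and 263 CPM in TP1 chemo tumors, and 421, 377 and 444 CPM in TP2 controls and 954, 324, 322 and 415 CPM in TP2 chemo tumors. All 3 TP1 chemo tumors were below all TP1 controls, but neither TP1 nor TP2 passed the test, with adjusted p values of 0.167 and 0.484. At TP3 Fasn had 3390.3, 2816, 1956 and 3181 CPM (log2 fold change of 2.79 ± 0.36 (SE), adjusted p = 2.06e-05).

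Acaca, the carboxylase that commits acetyl-CoA to fatty acids, had 87.9 to 104 CPM in controls, 79.2, 116 and 80.1 CPM after chemo at TP1, 235, 99.5, 136 and 122 CPM at TP2 and 410.3 to 609 CPM at TP3. The TP1 chemo tumors lay on both sides of their controls, and those of TP2 and TP3 lay above theirs. It was not called at TP1 or TP2 (log2 fold changes of -0.13 and 0.66, adjusted p = 0.736 and 0.0266) and rose at TP3 (log2 fold change of 2.51 ± 0.26 (SE), adjusted p = 2.06e-06). Acacb, its mitochondrial relative that limits fatty acid burning, rose at TP2 (log2 fold change of 1.04 ± 0.25 (SE), adjusted p = 0.0025) and TP3 (log2 fold change of 1.41 ± 0.25 (SE), adjusted p = 2.61e-04). Elovl6, which lengthens palmitate, had 16.5 to 24.4 CPM in controls and 25.3 to 46.7 CPM at TP3, and rose there by 1.06 on the log2 scale, close to the fold threshold. That call was lost without TP2 control replicate 3 or TP3 chemo replicate 2 or 4. Acly, which supplies the acetyl-CoA, was called at none of the times, with an adjusted p of 0.00537 and a log2 fold change of 0.92 at TP3.

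Me1, the malic enzyme that supplies NADPH, went the other way at TP2. Its controls had 48.4, 65.5 and 54.1 CPM and its chemo tumors 36.1, 25.8, 15.7 and 13.0 CPM, with no overlap (log2 fold change of -1.31 ± 0.26 (SE), adjusted p = 6.67e-04). In TP1 it had 47.6, 44.7 and 46.1 CPM without and 33.3, 37.6 and 28.7 CPM with chemo, which did not pass the test (adjusted p = 0.214), and at TP3 it had 77.5, 77.0, 64.9 and 93.4 CPM, of which 1 tumor lay just inside the control range, again without passing it (log2 fold change of 0.49 ± 0.26 (SE), adjusted p = 0.129).

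The imprinted pair moved in opposite directions. Nnat, neuronatin, a small membrane protein of neurons and adipocytes, had 0.277, 0.236 and 0.228 CPM in TP1 controls, 1.28, 52.1 and 0.658 CPM in TP1 chemo tumors, 0.196, 0.217 and 0.329 CPM in TP2 controls, 87.3, 16.1, 12.6 and 11.97 CPM in TP2 chemo tumors and 209.9, 199.9, 195 and 110.5 CPM at TP3. Every chemo tumor was above every control. It had the largest log2 fold change of the list at TP2 (log2 fold change of 7.02 ± 1.56 (SE), adjusted p = 0.00154) and TP3 (log2 fold change of 9.51 ± 1.64 (SE), adjusted p = 2.14e-04). Mest, a gene of growing fat and embryonic mesoderm, had 11.1, 21.6 and 22.8 CPM in TP1 controls and 11.8, 4.81 and 5.35 CPM in TP1 chemo tumors, with 1 chemo tumor just inside the control range. It had 17.9, 14.9 and 31.7 CPM in TP2 controls, 4.65, 4.80, 5.15 and 3.08 CPM in TP2 chemo tumors and 14.1, 12.1, 8.74 and 8.74 CPM at TP3. It fell at TP1 (log2 fold change of -1.33 ± 0.38 (SE), adjusted p = 0.0143) and TP2 (log2 fold change of -2.28 ± 0.35 (SE), adjusted p = 1.08e-04), and at TP3 its log2 fold change of -0.96 was under the fold threshold (adjusted p = 0.0292).

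The chemo tumors of 60577 were then compared with each other. From TP1 to TP2, none of the 35 genes was higher and 1 was lower, where 3.58% and 2.44% of all genes were. The 1 gene was Angptl4 (log2 fold change of -1.83 ± 0.51 (SE), adjusted p = 0.0243), which ranged over 101 to 156 CPM at TP1 and 15.99 to 67.5 CPM at TP2. At an unadjusted p below 0.05 there were 8 of the 35, where 6065 of all 16241 genes were. Limma-voom called 5 of the 35, and of all 16241 genes 614 higher and 395 lower. Without TP1 chemo replicate 2, 18 of the 35 were called, and without TP2 chemo replicate 1, 3. The share of all genes in fits without 1 tumor is not given here. Angptl4 lost its call without TP1 chemo replicate 1 or 3 or TP2 chemo replicate 3 or 4. From TP2 to TP3, 26 genes were higher and none lower, where 3.47% and 4.4% of all genes were, with a median log2 fold change of 2.28. Without TP2 chemo replicate 3 or 4, 18 were called, the losses being Adipoq, Aqp7, Cidec, Fabp4, Lep, Plin1, Slc2a4 and Thrsp, and Adipoq, Cidec and Plin1 lost their call without any single TP3 tumor as well. The largest were Scd1 (log2 fold change of 3.51 ± 0.66 (SE), adjusted p = 0.00329), Lep (log2 fold change of 3.36 ± 0.97 (SE), adjusted p = 0.0182), Dgat2 (log2 fold change of 3.03 ± 0.68 (SE), adjusted p = 0.00609), Retn (log2 fold change of 2.95 ± 0.79 (SE), adjusted p = 0.0132) and Thrsp (log2 fold change of 2.95 ± 0.86 (SE), adjusted p = 0.0189). Of the 8 fatty acid synthesis genes 7 rose in this interval, among them Fasn (log2 fold change of 2.51 ± 0.32 (SE), adjusted p = 0.00107), Acaca by 1.85, Elovl6 by 1.80, Me1 by 1.80 and Acly by 1.16 on the log2 scale. Mest rose as well, by 1.33. Cfd, Plin4, Adrb3, Pck1 and Nnat, which had already risen at TP2, did not pass the test, with log2 fold changes of 2.28, 1.87, 1.89, 2.53 and 2.49. Markers of other tissues were higher in the same interval, 7 of 8 of the pancreatic acinar list (median log2 fold change 5.09), 4 of 8 of the macrophage list and, of 3 liver markers, Cyp2e1 (log2 fold change 3.01 ± 0.95 (SE), adjusted p = 0.0262). The other 2 liver markers were not called, with log2 fold changes of 1.79 and -1.27. The part of all these markers in the change of the 26 genes was not tested.

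The level in cultured cells divided the list. In all 4 line libraries, 15 genes were below 1 CPM and 19 were at or above it, with Cd36 and Gpd1 in between. Of the 14 tested genes near absent from the lines, 13 rose at TP1 and all 14 at TP2 and TP3, with median log2 fold changes of 5.30, 5.52 and 8.25. These 14 include Lep, Aqp7, Slc2a4, Adrb3 and Thrsp, which passed the filter only through 60577 chemo tumors. The counts of this class are therefore partly fixed by the filter. Of all genes tested, 9.65%, 14.8% and 14.2% rose at TP1, TP2 and TP3, and 5.96%, 9.61% and 10.2% fell. Of the 19 genes that the lines express, 4 rose and 1 fell at TP1, 6 rose and 3 fell at TP2, and 14 rose at TP3, with medians of 0.68, 0.67 and 2.33. A gene close to 0 in the controls can show a larger fold change than one that is not, so the medians of these classes are not comparable as sizes.

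**Figure D4:**
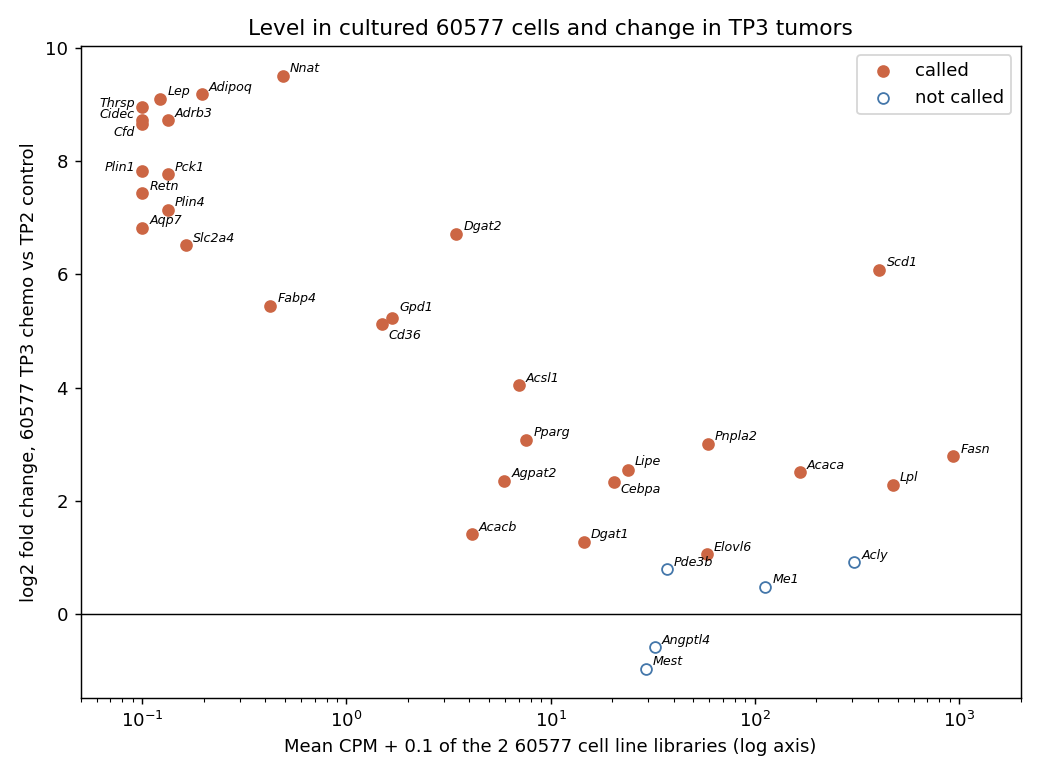
Mean level of each tested gene in the 2 libraries of cultured 60577 cells (CPM + 0.1, log axis) against its log2 fold change at TP3 in 60577; filled points passed the test. Genes at the left edge, absent from the cultured cells, have log2 fold changes above 5, and Scd1 is the one gene at over 100 CPM in culture with a change above 3.

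In culture, the lines expressed the lipogenic genes strongly. Fasn had 1049 and 823 CPM in 60577 cells and 614 and 792 CPM in HGS2 cells, Scd1 492 and 323 and 427 and 655 CPM, Acly 345 and 268 and 291 and 379.8 CPM, and Lpl 443 and 504 and 1077 and 629 CPM. In the tables Fasn in the 6 control tumors of 60577, at 377 to 541 CPM, was below both 60577 line libraries, and the 4 TP3 tumors were above them. Tumor and line tables were scaled separately, so this order was not tested. Of the 21 genes tested between the lines, 1 was higher and 3 were lower in HGS2 cells, where 7.55% and 8.38% of 13742 genes were. Pde3b was higher, at 80.7 and 119.6 CPM against 42.8 and 31.1 CPM (log2 fold change of 1.44 ± 0.28 (SE), adjusted p = 0.0258). Cd36 was lower, at 0.0337 and 0.0809 against 0.959 and 1.82 CPM (log2 fold change of -4.48 ± 0.82 (SE), adjusted p = 0.0218). Cebpa, at 4.21 and 4.31 against 23.9 and 16.6 CPM (log2 fold change of -2.25 ± 0.28 (SE), adjusted p = 0.0089), and Mest, at 6.94 and 2.56 against 19.3 and 39.0 CPM (log2 fold change of -2.62 ± 0.59 (SE), adjusted p = 0.0366), were also lower. Without 60577 library 1 none of the 4 was called, and without 60577 library 2 Cebpa alone was.

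At TP1, Cd36 was lowest in the chemo tumor in which Adipoq was highest, and so were Gpnmb, Cd68 and Plin2. Replicate 1 had the highest Cd36 of the TP1 chemo tumors, whereas replicate 2 had the highest Adipoq. Gpnmb, a glycoprotein of lipid-loaded macrophages, had 177, 24.5 and 146 CPM in these 3 tumors against 1.496 to 4.30 CPM in TP1 controls (log2 fold change 5.54 ± 0.75 (SE), adjusted p = 9.63e-05). Cd68, a lysosomal marker of macrophages, had 150.2, 91.0 and 107 CPM against 28.5 to 33.7 CPM (log2 fold change 1.94 ± 0.37 (SE), adjusted p = 0.00109). Plin2, the perilipin of droplets outside white fat, had 440.2, 151 and 285 CPM against 69.6 to 76.9 CPM. All 3 were lowest in replicate 2. Of the 8 macrophage markers, 3 were called higher at TP1, where 9.65% of all genes were. The third was Trem2 (log2 fold change 1.61 ± 0.18 (SE), adjusted p = 2.72e-05). The order of the tumors is given for Gpnmb and Cd68 only, so it does not stand for the macrophage list. From TP1 to TP2 chemo tumors Gpnmb, Cd68 and Plin2 fell by 2.24, 1.88 and 2.11 on the log2 scale (adjusted p = 0.0178, 0.00421 and 0.00861), whereas Cd36 had a log2 fold change of -1.61 that did not pass the test (adjusted p = 0.0717). Gpnmb and Cd68 were the 2 called of the 8 macrophage markers in that interval, of which 4 had positive log2 fold changes, with a median of -0.07 and a highest value of 1.66, so the list as a whole did not move with them. Which cells held the Cd36 RNA was not tested.

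**Figure D5:**
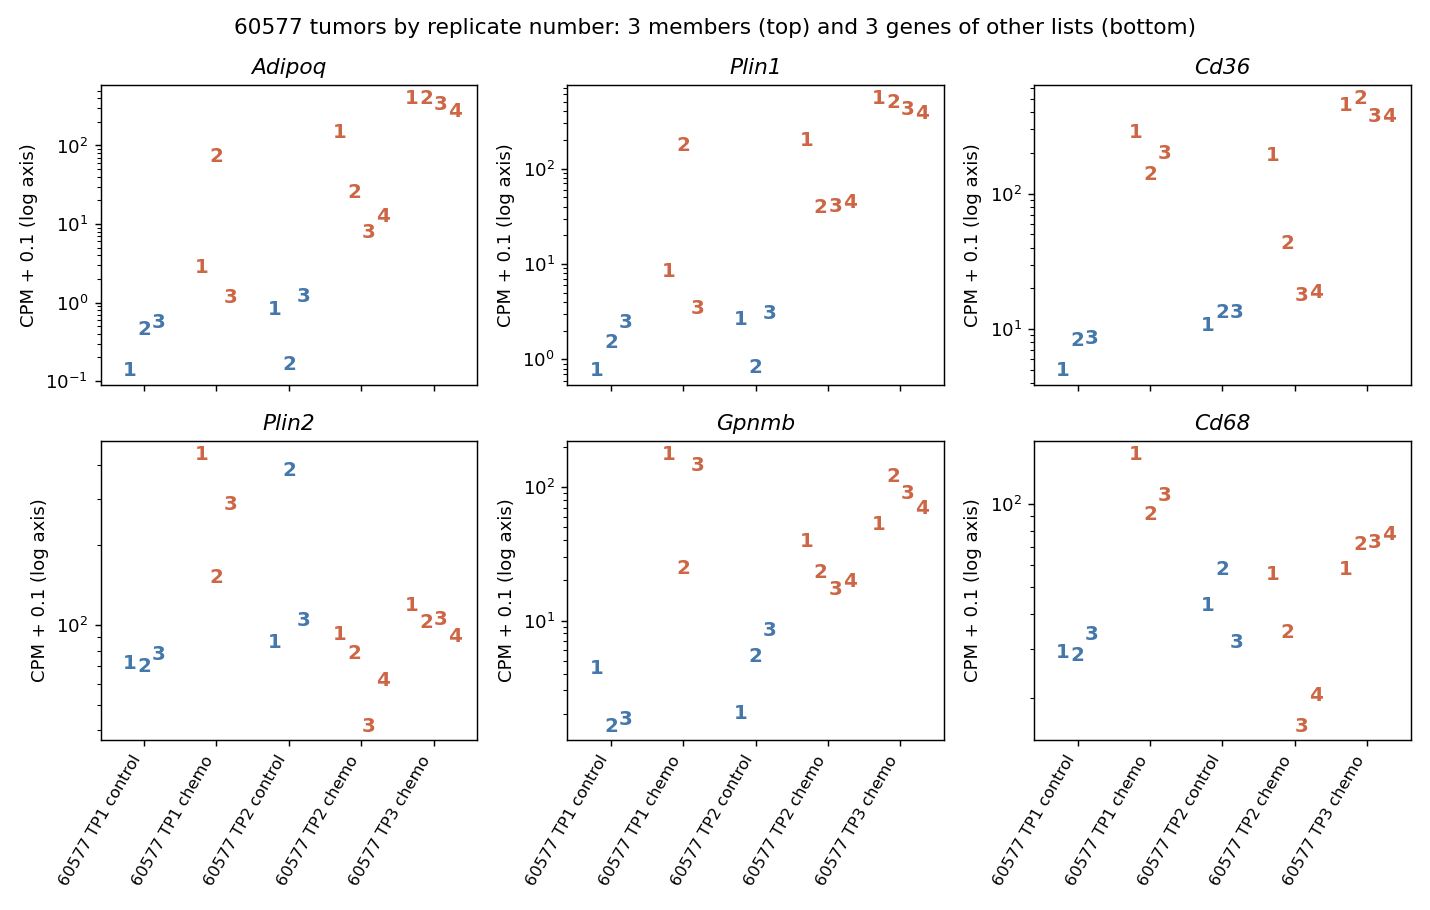
CPM (log axis) of Adipoq, Plin1, Cd36, Plin2, Gpnmb and Cd68 in the 17 tumors of 60577, plotted as replicate numbers. At TP1, replicate 2 is the highest chemo tumor for Adipoq and Plin1 and the lowest for Cd36, Plin2, Gpnmb and Cd68.

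Replicates of a group differed together across the list. In TP1 chemo tumors of 60577, replicate 2 was the highest of its group for 32 of the 35 genes, compared with 36.5% of all genes. In TP2 chemo tumors replicate 1 was highest for 32 genes (32.3% of all genes). At TP3 the highest tumor was replicate 1 for 18 genes (19.1% of all genes), replicate 2 for 12 (26.5%), replicate 3 for 1 (20.7%) and replicate 4 for 4 (33.7%), and replicates 3 and 4 were the lowest for 16 and 17. In HGS2, replicate 3 of the TP1 chemo group was highest for 29 genes (34.3% of all genes), replicate 3 of the TP2 controls for 23 (34%), replicate 3 of the TP2 chemo group for 25 (28.3%) and replicate 1 of the TP3 chemo group for 32 (27.9%). One of these HGS2 tumors was a control. A tumor that was high for one of these genes tended to be high for most, so the genes are not separate measurements of the effect of chemo.

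In HGS2, none of the 35 genes was called at TP1, TP2 or TP3, and 0% of all genes were called at TP1, 0% at TP2 and 0% at TP3 by edgeR. At an unadjusted p below 0.05 there were 5 of the 35 genes at TP1, 1 at TP2 and 0 at TP3, and 413, 1233 and 406 of all genes. DESeq2 and limma-voom called none of the 35 either. The TP2 and TP3 comparisons share their 4 controls. The median log2 fold change of the list was 0.93 at TP1, 0.19 at TP2 and -0.01 at TP3. Adipoq had 2.38, 5.01 and 0.0498 CPM in TP1 controls and 3.86, 9.37 and 59.7 CPM in TP1 chemo tumors, 0.260, 1.39, 14.7 and 9.31 and 12.5, 0.0397 and 12.7 CPM at TP2, and 108, 12.8, 1.77 and 5.41 CPM at TP3. Cfd had 10.6, 33.1 and 0.249 and 28.1, 31.5 and 326 CPM at TP1, 0.967, 10.2, 132 and 56.7 and 92.0, 0 and 118 CPM at TP2, and 1037, 103, 19.1 and 39.8 CPM at TP3. For both genes the controls overlapped the chemo tumors at TP1 and TP2, and TP3 replicate 1, which is outside these fits, was far above the others.

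The intervals in HGS2 were wide for Adipoq, narrow for Fasn and between these for Scd1. Adipoq at TP1 had a log2 fold change of 3.30 with a 95% interval from -0.04 to 6.65, which includes both no difference and the value of 60577. Fasn had 359, 257 and 291 CPM in TP1 controls and 297, 261 and 264 CPM in TP1 chemo tumors, with an interval from -0.39 to 0.15, and at TP3 without replicate 1 from -0.29 to 0.21. Scd1 at TP3 had 1597, 113, 153 and 180.4 CPM, of which the first value is the tumor left out, and an interval from -1.12 to 1.03 without it. For Fasn and Scd1 these TP3 intervals lie below the 60577 values of 2.79 and 6.09. Both leave out replicate 1, in which Fasn was 1896 CPM against 276, 262 and 243 CPM in replicates 2, 3 and 4. They therefore do not cover that tumor. Mest, at 119, 332, 59.5 and 193 CPM in TP2 controls and 27.9, 103 and 21.5 CPM in TP2 chemo tumors, had a log2 fold change of -1.82 with an adjusted p of 0.676.

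Whether chemo moved these genes more in one model than in the other was tested as an interaction in the 33 tumors of the joint fit. At TP1, none of the 35 genes was called, against 1.45% of all genes. At an unadjusted p below 0.05 there were 4 of the 35, where 3058 of all 16241 genes were. DESeq2 called 1 of the 35, Cd36, and of all 16241 genes 460 higher and 261 lower. EdgeR without HGS2 TP1 chemo replicate 3 called Cd36 too. At TP2, 22 of the 35 had an unadjusted p below 0.05, where 4705 of all 16241 genes did. After adjustment, 1 gene rose more in 60577 at TP2, where 3.21% of all genes did. It was Nnat, which had 0.0744, 0.231, 1.05 and 1.25 CPM in HGS2 TP2 controls and 1.52, 0.119 and 1.73 CPM in HGS2 TP2 chemo tumors (difference log2 fold change of 6.20 ± 1.94 (SE), adjusted p = 0.0421). The call was lost with no filter on low counts, with limma-voom, with all 17 HGS2 tumors, and without any of 11 of the 14 TP2 tumors taken out 1 at a time, the exceptions being 60577 chemo replicate 2 and HGS2 control replicates 1 and 2. The median difference over the 35 genes was 2.49. DESeq2 called 13 of the 35 at TP2, Nnat among them, and of all 16241 genes 880 higher and 786 lower. That a gene passed in 60577 and not in HGS2 thus does not by itself show that the models differed for it. The TP3 groups were not put through this test, for want of TP3 controls.

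Control tumors of the models differed for 6 of the 35 genes, which were higher in HGS2, and none was lower, where 13.2% and 8.81% of all genes were. The count of 6 is near the share of all genes, so it is not a trait of this list. Strain, cell line and age of the tumor differ together here and cannot be told apart. Cfd had a median of 10.6 CPM in the 7 HGS2 controls (lowest 0.249, highest 132) and of 0.951 CPM in the 6 controls of 60577 (log2 fold change of 4.43 ± 1.40 (SE), adjusted p = 0.0102). Adipoq (log2 fold change of 3.27 ± 1.24 (SE), adjusted p = 0.0298), Cidec (log2 fold change of 2.98 ± 1.14 (SE), adjusted p = 0.0312) and Thrsp (log2 fold change of 3.37 ± 1.33 (SE), adjusted p = 0.0363) were higher too, with ranges that overlapped between the models. Acsl1 had a median of 48.0 CPM in HGS2 and of 17.2 CPM in 60577 controls, with no overlap (log2 fold change of 1.34 ± 0.32 (SE), adjusted p = 0.00103). Mest, with a median of 119 CPM in HGS2 (from 6.43 to 332) and of 19.7 CPM in 60577 (log2 fold change of 2.74 ± 0.59 (SE), adjusted p = 4.46e-04), was lower in HGS2 than in 60577 cells in culture but higher in the tumors. Limma-voom called 2 of the 6, Acsl1 and Mest, and of all 16241 genes 1751 higher and 1617 lower. Without HGS2 TP2 control replicate 3 or any of 3 control tumors of 60577 (TP1 replicates 1 and 2, TP2 replicate 2) 3 were called, Adipoq, Cidec and Thrsp losing theirs. The 8 pancreatic acinar markers were also all called higher in HGS2 controls. Their sum in TP1 controls was 10.7 to 72520 CPM (median 86.2) in HGS2 and 5.12 to 10.5 CPM (median 6.69) in 60577. In TP2 controls it was 8.29 to 139249 CPM (median 873) in HGS2 and 10.1 to 1746 CPM (median 235) in 60577, so the TP2 ranges overlapped. The HGS2 medians were far below the highest tumors, so these sums are not a trait of every HGS2 control. The part of these markers in the differences above was not tested.

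At TP3 the make-up of the adipocyte signal was set beside that of the other model as ratios to Adipoq within each tumor, as a description with no test. Of 15 genes, 6 had ratios that did not overlap between the 4 TP3 tumors of each model, HGS2 replicate 1 included. The share of all genes with such ratios was not computed, so this count has nothing to be read against. Adipoq was low in HGS2 replicates 3 and 4, at 1.77 and 5.41 CPM, and Nnat had 7 counts in replicate 3. The ratio of Cfd to Adipoq was 7.34 to 10.8 in HGS2 and 2.09 to 2.57 in 60577, and that of Cidec was 0.808 to 1.16 and 0.629 to 0.725. Nnat went the other way, at 0.052 to 0.199 in HGS2 and 0.408 to 0.579 in 60577. Fasn, Gpd1 and Lipe were the others. The cultured cells also express Fasn, whose ratio was 17.6 to 148 in HGS2 and 5.80 to 11.8 in 60577. They express Lipe too, at 19.3 to 28.1 CPM, and its ratio was 0.847 to 7.12 in HGS2 and 0.550 to 0.774 in 60577. Mouse strain and tumor line cannot be told apart here.

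Genes outside the list whose levels ordered the 17 tumors of 60577 most like Adipoq were found by Spearman's rho of log2 CPM, as a description. They were Heph (0.993), a copper ferroxidase, Tshr (0.990), the thyrotropin receptor, Car3 (0.990), a carbonic anhydrase abundant in fat, Ankef1 (0.988) and Gm42517 (0.988). Car3 had 2.43 to 9.25 CPM in all but 1 of the controls (0.186 CPM in TP2 replicate 2), 30.2, 664 and 10.4 CPM in TP1 chemo tumors and 2094 to 2553 CPM at TP3. Within the list, rho was 0.993 for Cidec, 0.990 for Gpd1 and 0.988 for Plin1, and 7 of its genes besides Adipoq stood among the 50 genes of highest rho. At the other end were Fasn (0.480), Elovl6 (0.25), Me1 (0.223), Angptl4 (-0.029) and Mest (-0.417). The points share group, chemo and depth, so these values show order only.

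Other genes of adipose tissue were taken from lists chosen by function, also with earlier results of these data known. The shares of all genes to set beside their counts in 60577 were 9.65%, 14.8% and 14.2% higher at TP1, TP2 and TP3. The shares lower were 5.96%, 9.61% and 10.2%. Of 31 other adipocyte genes tested, 12 were higher at TP1 and none lower, 11 higher and 4 lower at TP2, and 19 higher and 3 lower at TP3. The largest at TP3 were Tshr (log2 fold change 8.16 ± 1.41 (SE), adjusted p = 2.10e-04), Sncg, a synuclein of fat and neurons (6.996 ± 1.25 (SE), adjusted p = 2.74e-04) and Lgals12, the adipocyte galectin (6.23 ± 1.17 (SE), adjusted p = 4.17e-04). Of 6 tested thermogenic genes of brown and beige fat, 1 was lower at TP1, 1 higher and 1 lower at TP2, and 1 higher and 3 lower at TP3, and Ucp1, the uncoupling protein, was at most 2.30 CPM in any 60577 tumor. Of 10 adipose progenitor genes, 3, 1 and 5 were higher at TP1, TP2 and TP3 and none lower, among them at TP3 Ly6a (3.02 ± 0.66 (SE), adjusted p = 0.00132), Ebf2 (2.44 ± 0.67 (SE), adjusted p = 0.00706) and Pi16 (2.36 ± 0.56 (SE), adjusted p = 0.00255).

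Markers of other cells also differed between chemo and control tumors of 60577, some higher and some lower. Of all genes, 9.65%, 14.8% and 14.2% were higher at TP1, TP2 and TP3, and 5.96%, 9.61% and 10.2% were lower. The 10 epithelial markers summed to 1587 to 2906 CPM in controls, 325 to 636 CPM in TP1, 307 to 588 CPM in TP2 and 206 to 327 CPM in TP3 chemo tumors, and 6, 8 and 8 of the 8 tested were lower. All 6 proliferation markers were lower at each time, and 6, 2 and 5 of 7 mesothelial markers. The 8 macrophage markers summed to 305 to 620 CPM in controls and to 777 to 1000, 504 to 926 and 1011 to 1110 CPM in chemo tumors at TP1, TP2 and TP3, with 3, 2 and 4 higher. Endothelial markers were higher for 0, 1 and 3 of 7 genes, and B and T cell markers for 1, 6 and 6 of 6. Pancreatic acinar markers were lower for 8 of 8 at TP2 and called for none at TP1 or TP3, and they summed to 10.1 to 1746 CPM in TP2 controls. Of 3 liver markers tested, 2 were higher at TP3, Cyp2e1, which fat also expresses (log2 fold change 8.14 ± 1.54 (SE), adjusted p = 4.52e-04), and Serpina1a (log2 fold change 2.74 ± 1.08 (SE), adjusted p = 0.0449). The third went the other way, with a log2 fold change of -3.43, and was not called. The 6 liver markers summed to 30.2 to 58.7 CPM at TP3 against 1.40 to 16.9 CPM in TP2 controls. The part of these shifts in the change of the 35 genes was not tested.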

How the data were processed

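RNA of 34 omental tumors and 4 cell line libraries was sequenced after rRNA depletion. The authors trimmed the reads with Trim Galore 0.6.5, aligned them with STAR 2.7.0f to GRCm38 (mm10) and estimated expected counts per Ensembl gene with RSEM. These deposited expected counts were rounded to whole numbers, and genes below 1 CPM in more than 75% of libraries were left out (at least 1 CPM in 25% was required). Tumors were tested per model with edgeR 4.0.16 (quasi-likelihood, TMM scaling, R 4.3.3), differences between models in a joint fit of 33 tumors, and cell lines on their own. P-values were adjusted by Benjamini-Hochberg over all genes tested. A gene was called where the adjusted p was below 0.05 and the log2 fold change exceeded 1 in size. The fits were tested on simulated data first. Alternatives were DESeq2 1.42.0 (its size factors and its test), limma-voom (limma 3.58.1), no filter, a replicate block, a length and GC offset, both models together, all 17 HGS2 tumors, and leaving out each library. No column belonged to another series (0 columns). The genes and lists were chosen with earlier results of these data known. Values in every tumor are given for the most abundant gene of each role per length, for genes called against the direction of their role, and for the 5 with the largest called change in each comparison; genes of the other lists are the 3 with the largest called change in a list, and Plin2 at TP1 and Ucp1 were chosen after their values were seen. P-values measure the spread between these samples, which for the cell lines may be technical.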

Additional observations from a re-analysis of the deposited data

Results flagged for a closer look

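A tumor was singled out when its gap to the nearest of its group exceeded Dixon's 95% critical value, in 140 groups of 4 tumors, a test that chance passes in about 1 of 20 groups. In 60577 TP2 chemo tumors, replicate 1 stood above the other 3 for Lep (24.9 CPM), Plin1 (196 CPM), Cidec (103 CPM), Aqp7 (10.5 CPM), Slc2a4 (15.9 CPM), Dgat2 (95.5 CPM) and Nnat (87.3 CPM). In 60577 TP3 chemo tumors, replicate 3 stood below the others for Agpat2 (40.8 CPM), Scd1 (3798 CPM) and Elovl6 (25.3 CPM), and replicate 4 for Nnat (110 CPM). In HGS2, TP3 chemo replicate 1 stood above the others for Acsl1 (155 CPM), Cebpa (175 CPM), Fasn (1896 CPM) and Acaca (395 CPM), and TP2 control replicate 1 stood below for Fabp4 (6.21 CPM). Genes of 1 tumor are not independent, so these are few tumors rather than many separate results.

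HGS2 TP3 chemo replicate 1, which was outside the reported fits, also held 589.2 CPM of the 6 adipocyte genes Adipoq, Plin1, Cidec, Lep, Fabp4 and Lipe, against at most 97.3 CPM in HGS2 controls. The response of Nnat to chemo at TP2 differed between the models by 6.2 on the log2 scale in the test of the difference itself, with an adjusted p of 0.0421. It was the 1 called of the 35 genes, where 3.21% of all genes were, and its call was lost with limma-voom, with no filter, with the replicate block, with all 17 HGS2 tumors and without any of 11 of the 14 TP2 tumors.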

How the results depend on the processing

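None of the 113 called results of single genes changed direction under any alternative run, and 68 kept their call under every alternative run. Of the 35 genes, limma-voom called 5 at 60577 TP1 (20 by edgeR), 5 from TP1 to TP2 (1), 2 between control tumors (6) and 0 for the difference between models at TP2 (1). DESeq2 called 13 for that difference at TP2 and 1 at TP1 (0), and gave no adjusted p for Cfd, Nnat and Pck1 at 60577 TP1, TP2 and TP3. Of all 16241 genes, DESeq2 called 880 higher and 786 lower for the TP2 difference, and limma-voom 379 and 570. The length and GC offset gave 2 from TP1 to TP2 and 2 for the TP2 difference, which fell to 0 with no filter and 0 with all 17 HGS2 tumors. Both models fitted together gave 0 from TP1 to TP2. Replicate numbers did not pair the tumors, as same-numbered tumors had median correlations of -0.06 in 60577 and -0.06 in HGS2, and with the replicate block 13 were called at TP1, 0 from TP1 to TP2 and 0 for the TP2 difference; the counts of the other comparisons stayed within 1.5 times.

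Leaving out 1 library gave 2 to 21 called genes at 60577 TP1, the 2 without chemo replicate 2, 0 to 18 from TP1 to TP2, 3 to 7 between control tumors, 0 to 1 and 0 to 2 for the differences between models at TP1 and TP2, and 0 to 6 between cell lines, where the lone library left was assumed to vary like the other line. The counts at TP2 (21 to 25), at TP3 (29 to 32) and from TP2 to TP3 (18 to 31) stayed within 1.5 times of the reported ones. In HGS2, none of the 35 was called under any alternative. The cause of these shifts was not tested. Depth limits genes near 0 CPM in controls, whose fold changes depend on a few reads.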
